A study of Mus musculus with 16 samples.

Results

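The genes described here are interleukin-2 (Il2) and the receptor chains of the cytokines that signal through the common gamma chain, namely Il2ra, Il2rb, Il2rg, Il4ra, Il7r, Il9r, Il15ra and Il21r. They were chosen by name, as every probe set of the array whose annotation held exactly 1 gene symbol and that symbol was among these 9. Such probe sets existed for 8 of the 9 genes, 14 of 45101 probe sets in all; Il2rg was not analysed here. Of the 8 genes, 7 reached the level minimum for a test (log2 intensity 6 on at least 2 arrays), out of 13007 genes tested, and Il9r did not.

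The samples are CD4+ T cells of mice, hybridised to 16 Affymetrix arrays in 8 groups of 2. STAT3-deficient cells carried floxed Stat3 alleles with a Cre recombinase under CD4 control, and WT cells carried the floxed alleles without Cre. Naive cells sorted as CD44- and CD62L+ were activated with antibodies to CD3 and CD28 for 3 days, in IL-6 with TGFb, in IL-6, in TGFb or in medium, with doses given as 10 ug/ml for IL-6 and 2.5 ug/ml for TGFb. CD4-driven Cre is active from thymic development on, before the cells are sorted. Which animals the replicates came from is not given in the sources used here, so a p-value covers just the spread among these arrays.

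Activated T cells secrete IL-2, which acts back on them through a receptor of alpha (Il2ra, CD25), beta (Il2rb, CD122) and common gamma chains. IL-15 shares the beta and gamma chains and has its own alpha chain (Il15ra), while IL-4, IL-7, IL-9 and IL-21 each pair a chain of their own (Il4ra, Il7r, Il9r, Il21r) with the gamma chain. The chains carry the kinases JAK1 and JAK3, which activate STAT5, STAT6 or STAT3 according to the cytokine. IL-2 is known to favour regulatory T cells and to restrain the Th17 cells that IL-6 with TGFb induces through STAT3.

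The values are log2 of the deposited intensity, and each gene is given by its brightest probe set unless stated. The median intensity per array lay between 66 and 73. Stat3 read 8.40 to 10.46 in STAT3-deficient cells and 10.22 to 12.18 in WT cells. The ranges overlapped because STAT3-deficient TGFb replicate 2, at 10.46, read above WT medium replicate 1, at 10.22. The sources used here do not say whether the Stat3 probe set lies in the deleted part. The STAT3-deficient TGFb replicate 1 array stood apart in Il17a, the Th17 cytokine, at 9.55 against 6.04 to 6.51 on the other 7 STAT3-deficient arrays. Foxp3, the factor of regulatory T cells, read 4.81 in WT TGFb replicate 1 and 9.99 in replicate 2. These values go against what TGFb alone is known to induce, and whether arrays were exchanged between labels was not tested. The values of the TGFb groups are therefore those of the arrays so labelled. The called changes below are also given without STAT3-deficient TGFb replicate 1 and without WT TGFb replicate 1. Replicate 1 arrays read the female-specific Xist at 11.91 to 13.21 and replicate 2 arrays at 6.64 to 7.60, and Actb read lower at its 5' than at its 3' probe set, a sign of RNA quality, by -0.50 to -0.11 in replicate 1 and by -1.71 to -0.88 in replicate 2. All 7 measured T cell markers lay above log2 8 on all 16 arrays. Every measured marker of CD8 T cells (2 of 2), B cells (4 of 4), NK cells (2 of 2) and dendritic cells (4 of 4) and 5 of 6 myeloid markers stayed under log2 8 throughout, Mpeg1 reaching 8.15.

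The data showed a pair of patterns. With IL-6 present, Il4ra, the chain that binds IL-4 and IL-13, was 3.54-fold lower in STAT3-deficient than in WT cells, and no other receptor chain passed the test there, although Il21r did in a fit with the replicate number as a block (limma adjusted p = 0.0349). With TGFb present, Il2 was 7.39-fold and Il15ra 2.06-fold lower than without it, averaged over both genotypes and IL-6 states. The Il2 group means differed least in WT cells with IL-6, at 8.02 with TGFb and 8.55 without. Whether the TGFb change depended on IL-6 was not tested. The dimmer Il15ra probe set did not pass. Il2ra and Il2rb, the chains that complete the high-affinity IL-2 receptor, passed the test in none of the 13 comparisons made. Fewer cells expressing a gene and less RNA per cell cannot be told apart in these bulk samples.

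**Figure D1:**
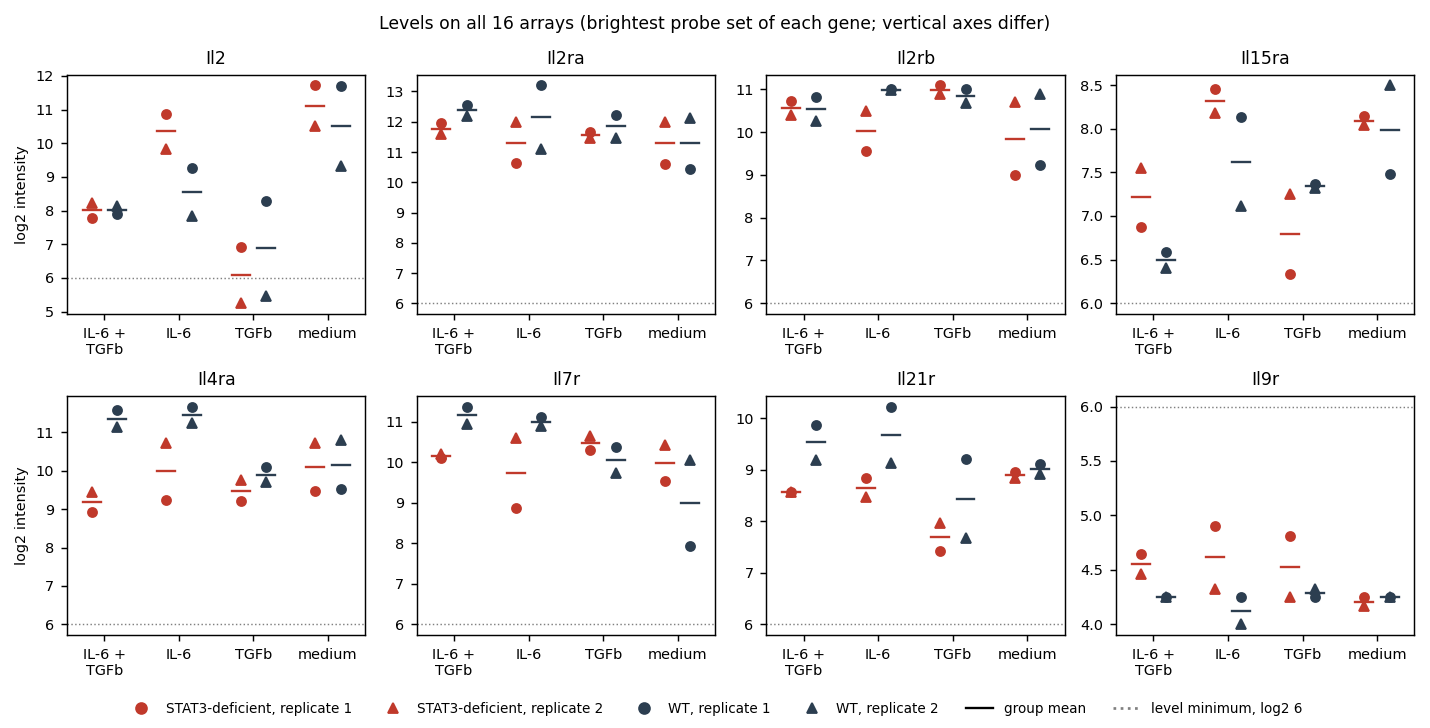
Log2 intensity (vertical axes) of the 8 genes with probe sets, by culture condition, for STAT3-deficient (red, left) and WT cells (dark, right); circles are replicate 1, triangles replicate 2, bars group means and the dotted line the level minimum of log2 6. The 4 WT arrays with IL-6 lie above the other 12 for Il4ra and Il7r, and Il9r stays below the minimum. Il2 group means are lower with TGFb than without it in both genotypes and IL-6 states, by least in WT cells with IL-6.

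Il2 encodes the ligand. In IL-6 with TGFb it read 7.77 and 8.23 in STAT3-deficient cells and 7.91 and 8.13 in WT cells (replicates 1 and 2). In IL-6 alone it read 10.86 and 9.84 in STAT3-deficient cells and 9.28 and 7.83 in WT cells. In TGFb alone it read 6.92 and 5.25 in STAT3-deficient cells and 8.29 and 5.46 in WT cells, and in medium 11.72 and 10.50 in STAT3-deficient and 11.70 and 9.34 in WT cells. Medium thus gave the highest group means in both genotypes and TGFb alone the lowest, where both replicate 2 arrays lay below the level minimum, so the size of that fall depends on the background.

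Over both genotypes and both IL-6 states, Il2 averaged 7.25 ± 1.25 on the 8 arrays with TGFb and 10.13 ± 1.33 on the 8 without (SD). The log2 change was -2.89 (SE 0.49, limma adjusted p = 0.00526), and it was -3.16 within replicate 1 and -2.61 within replicate 2. The ranges overlapped, 5.25 to 8.29 with TGFb and 7.83 to 11.72 without, and the lowest value without TGFb was WT IL-6 replicate 2. That array, at 7.83, read below WT IL-6 with TGFb replicate 2, at 8.13. Complete separation of the 8 arrays with TGFb below the others was found for 0 of the 7 genes and for 0.361% of all genes. The call held in all 16 fits that left out an array (adjusted p up to 0.0174). Without STAT3-deficient TGFb replicate 1 the change was -3.09 (limma adjusted p = 0.00510), and without WT TGFb replicate 1 it was -3.24 (limma adjusted p = 0.00202). Whether TGFb acted differently in the genotypes was not settled: the TGFb change was 1.60 more negative in STAT3-deficient than in WT cells (95% interval -3.75 to 0.56, limma adjusted p = 1.00).

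In IL-6 alone, the 2 STAT3-deficient arrays read Il2 above both WT arrays, with a log2 difference of 1.80 (95% interval -0.36 to 3.95) that did not pass the test (limma adjusted p = 0.310). In IL-6 with TGFb the difference was -0.02 (95% interval -2.17 to 2.14), and the groups overlapped.

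The promoter of Il2 is printed because the gene changed most with TGFb of the 7 tested. Capitals in this and the following promoters mark matches to GGAAA, the core of sites for the calcium-regulated NFAT factors, TTCNNNGAA (a STAT-type site) or TGANTCA (an AP-1-type site), each on either strand. The sequences are from RefSeq (GRCm38.p6), 5′ to 3′ along the gene, from 250 bases before to 50 bases after the annotated start.
Il2 promoter (chr3:37125905-37126204, - strand): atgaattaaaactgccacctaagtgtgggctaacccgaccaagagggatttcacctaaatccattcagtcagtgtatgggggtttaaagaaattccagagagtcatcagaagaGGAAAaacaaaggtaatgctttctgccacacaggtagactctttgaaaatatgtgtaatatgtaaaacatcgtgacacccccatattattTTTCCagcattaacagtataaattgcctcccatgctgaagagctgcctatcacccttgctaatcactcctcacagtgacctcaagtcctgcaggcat
The Il2 window held GGAAA matches that begin 137 and 47 bases before the start, and no match to the other motifs. GGAAA occurs in 61.3% of the 32851 promoters in the table, TTCNNNGAA in 8.3% and TGANTCA in 7.8%, so a GGAAA match is common and a match is a description of the letters only.

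Il2ra, the alpha chain CD25, was bright on every array, from 10.45 to 13.20. With both cytokines it read 11.96 and 11.58 in STAT3-deficient and 12.57 and 12.18 in WT cells. In IL-6 alone the values were 10.63 and 11.99 in STAT3-deficient and 13.20 and 11.11 in WT cells, so the replicates differed more than the genotypes. In TGFb they were 11.65 and 11.46 in STAT3-deficient and 12.23 and 11.48 in WT cells, and in medium 10.61 and 12 in STAT3-deficient and 10.45 and 12.12 in WT cells.

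With IL-6 present, Il2ra differed by -0.73 between STAT3-deficient and WT cells (95% interval -1.87 to 0.42, limma adjusted p = 0.390), by -1.59 within replicate 1 and 0.14 within replicate 2. Its dimmer probe set separated the genotypes more cleanly. With IL-6 it read 10.44 and 9.84 (IL-6 with TGFb) and 9.58 and 10.13 (IL-6) in STAT3-deficient cells, against 10.94 and 10.64 (IL-6 with TGFb) and 11.32 and 10.83 (IL-6) in WT cells. All 4 STAT3-deficient values lay below all 4 WT values, yet the log2 change of -0.93 (SE 0.28) missed the threshold over all probe sets (limma adjusted p = 0.0722).

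Il2rb, the signalling beta chain shared with the IL-15 receptor, read 8.99 to 11.09. In IL-6 alone it read 9.55 and 10.49 in STAT3-deficient cells and 11.01 and 10.97 in WT cells, groups that did not overlap (log2 change -0.97, limma adjusted p = 0.351). In IL-6 with TGFb it read 10.74 and 10.39 in STAT3-deficient and 10.81 and 10.25 in WT cells, a difference of 0.03 (95% interval -1.24 to 1.31). The TGFb arrays read 11.09 and 10.89 in STAT3-deficient and 11 and 10.68 in WT cells, and the medium arrays 8.99 and 10.70 in STAT3-deficient and 9.23 and 10.90 in WT cells. In medium, replicate 1 was low in both genotypes. With TGFb present it averaged 10.73 ± 0.29 and without TGFb 10.23 ± 0.84 (SD, n = 8 each), a difference of 0.50 (95% interval -0.14 to 1.14). The dimmer Il2rb probe set differed by -1.34 between STAT3-deficient and WT cells in IL-6 alone (95% interval -2.66 to -0.02), without overlap. It did not pass over all probe sets (limma adjusted p = 0.247), and in IL-6 with TGFb it differed by -0.04.

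Il15ra encodes the alpha chain that binds IL-15 and presents it to neighbouring cells. It was dim, between 6.34 and 8.50. Cells in IL-6 with TGFb read 6.87 and 7.55 in STAT3-deficient and 6.58 and 6.41 in WT cells. In IL-6 alone it read 8.45 and 8.17 in STAT3-deficient and 8.13 and 7.12 in WT cells. In TGFb it read 6.34 and 7.26 in STAT3-deficient and 7.37 and 7.32 in WT cells, and in medium 8.14 and 8.04 in STAT3-deficient and 7.48 and 8.50 in WT cells.

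Over all contexts Il15ra averaged 6.96 ± 0.47 with TGFb and 8.004 ± 0.47 without (SD, n = 8 each). Its log2 change was -1.04 (SE 0.21, limma adjusted p = 0.0115), with -1.26 within replicate 1 and -0.82 within replicate 2, and it passed in all 16 fits that left out an array. The change was -0.93 without STAT3-deficient TGFb replicate 1 (limma adjusted p = 0.0193) and -1.05 without WT TGFb replicate 1 (limma adjusted p = 0.0233). The ranges overlapped, 6.34 to 7.55 with TGFb and 7.12 to 8.50 without. Its dimmer probe set, which fell below log2 6 on some arrays, changed by -0.54 and did not pass (limma adjusted p = 0.242, in a fit of 27220 probe sets that called 5.91% of them). With IL-6 present, Il15ra averaged 7.76 ± 0.70 in STAT3-deficient cells and 7.06 ± 0.77 in WT cells (SD, n = 4 each), a difference of 0.70 that did not pass (limma adjusted p = 0.164). Il2ra lies next to Il15ra on chromosome 2, with no protein-coding gene between them, and its TGFb change of 0.37 did not pass (95% interval -0.44 to 1.18).

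Il2 and Il15ra were thus 2 of the 7 tested genes called lower with TGFb and 0 were called higher, where 3.79% of the 13007 genes were called lower and 5.46% higher. Across the 7 the median change was -0.44, against -0.01 over all genes. Foxp3, which marks regulatory T cells, moved with TGFb too, reading 4.81 to 9.99 with it and 4.39 to 5.25 without. WT TGFb replicate 1, where Foxp3 read 4.81, read Il2 at 8.29, the highest Il2 value with TGFb. WT TGFb replicate 2, where Foxp3 read 9.99, read Il2 at 5.46. In STAT3-deficient TGFb, Foxp3 read 7.96 and 9.98 and Il2 6.92 and 5.25 (replicates 1 and 2). In IL-6 with TGFb both genes read higher in replicate 2. There Foxp3 read 4.81 and 7.90 in WT cells, with Il2 at 7.91 and 8.13. In STAT3-deficient cells Foxp3 read 7.35 and 8.99, with Il2 at 7.77 and 8.23. The part of Foxp3 in the change of Il2 and Il15ra was not tested.

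**Figure D2:**
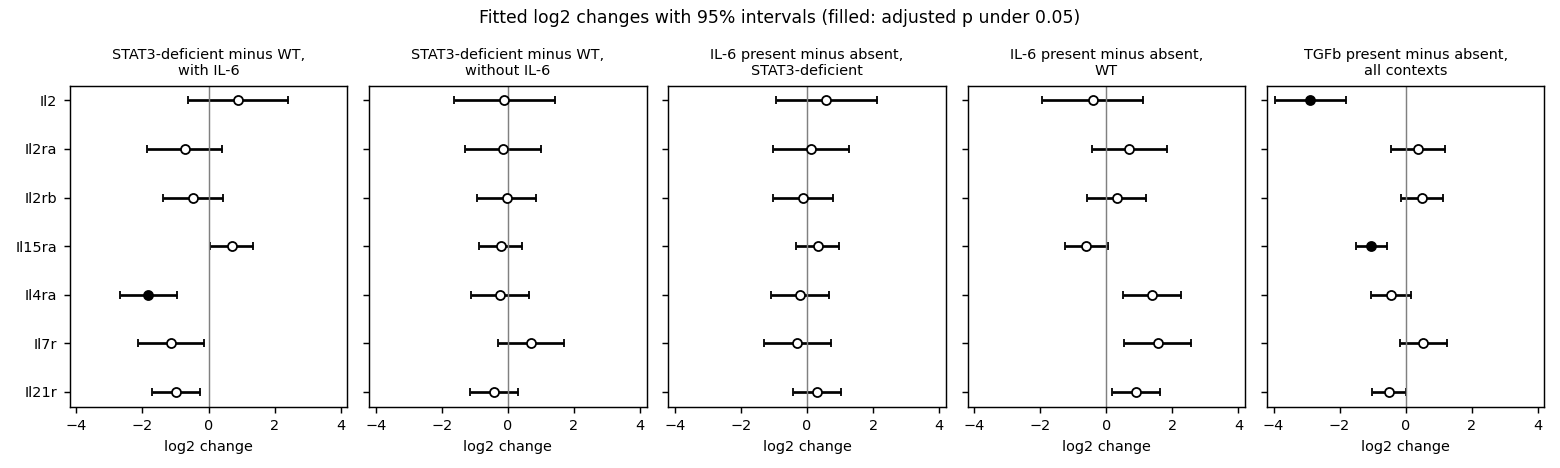
Fitted log2 changes (horizontal axes) of the 7 tested genes in 5 comparisons over the 16 arrays; points are estimates, bars 95% intervals, and filled points have an adjusted p under 0.05. Only Il4ra is filled for STAT3-deficient minus WT with IL-6 and only Il2 and Il15ra for TGFb, while no interval without IL-6 between genotypes excludes 0.

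Il4ra binds IL-4 and, with another partner, IL-13, and activates STAT6. Under the combined cytokines it read 8.92 and 9.44 in STAT3-deficient cells and 11.57 and 11.14 in WT cells. In IL-6 alone it read 9.23 and 10.73 in STAT3-deficient cells and 11.67 and 11.23 in WT cells. In TGFb it read 9.21 and 9.75 in STAT3-deficient and 10.09 and 9.70 in WT cells, and in medium 9.47 and 10.73 in STAT3-deficient and 9.51 and 10.80 in WT cells. Every WT array with IL-6 lay above every other array, since the lowest of the 4 read 11.14 and the highest of the other 12 read 10.80.

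With IL-6 present, Il4ra averaged 9.58 ± 0.79 in STAT3-deficient cells and 11.40 ± 0.26 in WT cells (SD, n = 4 each). The log2 change was -1.82 (SE 0.40, limma adjusted p = 0.0196), lower in both conditions and in both replicates, by 2.54 on the log2 scale within replicate 1 and 1.10 within replicate 2. It was the 1 of 7 genes called, where 7.76% of all genes were called, 6.10% lower and 1.66% higher. The call was lost without STAT3-deficient IL-6 with TGFb replicate 1 (change -1.69, adjusted p = 0.0828), without STAT3-deficient IL-6 replicate 1 (-1.45, adjusted p = 0.0681) or without WT IL-6 with TGFb replicate 1 (-1.71, adjusted p = 0.0835). Without both STAT3-deficient replicate 1 arrays that held TGFb it was -1.69 (limma adjusted p = 0.0796). The arrays with TGFb alone enter this comparison only through the shared estimate of the spread. Leaving out STAT3-deficient or WT TGFb replicate 1 therefore could not move the change, which stayed at -1.82.

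Taken singly, the Il4ra change was -2.18 in IL-6 with TGFb (limma adjusted p = 0.117). With the replicate number as a block, its adjusted p became 0.0449, where 2.48% of all genes were called. The change was -1.47 in IL-6 (limma adjusted p = 0.161). In TGFb it was -0.41 and in medium -0.06, and without IL-6 it averaged -0.23 (95% interval -1.10 to 0.64). IL-6 present minus absent came to -0.21 in STAT3-deficient cells (95% interval -1.08 to 0.66) and 1.38 in WT cells (95% interval 0.51 to 2.25, limma adjusted p = 0.135). The difference of these responses, -1.59 (95% interval -2.82 to -0.36), did not pass the test over all genes (limma adjusted p = 0.286).

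The next brightest Il4ra probe set differed by -2.03 between STAT3-deficient and WT cells with IL-6 (SE 0.47, limma adjusted p = 0.0308, where 5.86% of all probe sets were called), and its groups did not overlap. The dimmest of its 3 probe sets differed by -0.36 and did not pass (adjusted p = 0.243), although its groups did not overlap either. Il4, the ligand, read 5.46 and 6.89 (IL-6 with TGFb) and 5.73 and 12.23 (IL-6) in STAT3-deficient cells, and 8.06 and 5.64 (IL-6 with TGFb) and 9.56 and 9.74 (IL-6) in WT cells. The STAT3-deficient array with the highest Il4, IL-6 replicate 2, was also the one of the 4 with the highest Il4ra. Its Il4ra of 10.73 still lay below all 4 WT arrays with IL-6. The lowest of these, IL-6 with TGFb replicate 2, read Il4ra at 11.14 and Il4 at 5.64. The part of Il4 in the Il4ra difference was not tested.

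The Il4ra promoter is shown because this was the receptor chain called between the genotypes.
Il4ra promoter (chr7:125552021-125552320, + strand): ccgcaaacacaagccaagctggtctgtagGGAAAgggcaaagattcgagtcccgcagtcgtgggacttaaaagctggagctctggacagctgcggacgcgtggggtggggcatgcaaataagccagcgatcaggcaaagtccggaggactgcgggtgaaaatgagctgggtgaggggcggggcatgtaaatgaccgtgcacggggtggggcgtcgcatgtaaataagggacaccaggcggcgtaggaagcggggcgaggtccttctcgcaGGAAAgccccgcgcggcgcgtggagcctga
It held GGAAA matches that begin 221 bases before and 20 bases after the start, and neither the STAT-type nor the AP-1-type letters occurred in this window.

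Il7r is the alpha chain for IL-7, the survival cytokine of naive and memory T cells. With both cytokines it read 10.10 and 10.19 in STAT3-deficient and 11.37 and 10.94 in WT cells. In IL-6 alone it read 8.86 and 10.59 in STAT3-deficient and 11.11 and 10.89 in WT cells. In TGFb it read 10.29 and 10.65 in STAT3-deficient and 10.38 and 9.73 in WT cells, and in medium 9.55 and 10.42 in STAT3-deficient and 7.94 and 10.06 in WT cells. As for Il4ra, the 4 WT arrays with IL-6 lay above the other 12, with 10.89 as the lowest of the 4 and 10.65 as the highest of the rest. This held for 2 of the 7 genes and for 2.00% of all genes tested, and it was noticed in the values rather than chosen in advance.

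The Il7r differences did not pass the tests. STAT3-deficient minus WT with IL-6 was -1.14 (95% interval -2.15 to -0.14, limma adjusted p = 0.144), and without IL-6 0.70 (95% interval -0.31 to 1.71). Its dimmer probe set gave -1.61 with IL-6 and lay just outside the threshold (limma adjusted p = 0.0541 over all probe sets). IL-6 present minus absent was -0.29 in STAT3-deficient and 1.55 in WT cells, and the difference of these, -1.84 (95% interval -3.27 to -0.42), had limma adjusted p = 0.286. In WT cells the IL-6 change rested on a wide spread in medium (7.94 and 10.06). With an array left out, this change lay between 1.02 and 2.08, the latter without WT medium replicate 2.

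The Il7r promoter is shown because, of the 8 promoters of 7 analysed genes in the table, it was the only one with a STAT-type match.
Il7r promoter (chr15:9529827-9530126, - strand): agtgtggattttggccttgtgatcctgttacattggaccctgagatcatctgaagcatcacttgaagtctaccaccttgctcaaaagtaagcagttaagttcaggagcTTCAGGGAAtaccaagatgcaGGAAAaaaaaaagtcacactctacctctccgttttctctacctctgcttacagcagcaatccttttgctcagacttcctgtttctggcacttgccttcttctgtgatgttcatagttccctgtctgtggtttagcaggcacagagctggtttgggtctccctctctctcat
The match TTCAGGGAA begins 142 bases before the start, and a GGAAA match begins 121 bases before it.

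Il21r binds IL-21, the cytokine that follicular helper and Th17 cells make and that signals through STAT3. Cells given IL-6 and TGFb together read 8.57 and 8.58 in STAT3-deficient and 9.88 and 9.19 in WT cells. In IL-6 alone it read 8.84 and 8.48 in STAT3-deficient and 10.23 and 9.14 in WT cells. In TGFb it read 7.43 and 7.97 in STAT3-deficient and 9.21 and 7.67 in WT cells, and in medium 8.96 and 8.85 in STAT3-deficient and 9.11 and 8.92 in WT cells. Il21r is the direct neighbour of Il4ra on chromosome 7, with 0 annotated genes between them.

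With IL-6 present, Il21r averaged 8.62 ± 0.15 in STAT3-deficient cells and 9.61 ± 0.53 in WT cells (SD, n = 4 each), and the groups did not overlap. The log2 change of -0.99 (SE 0.33) missed the threshold (limma adjusted p = 0.0917). A fit blocked on the replicate number did call it (limma adjusted p = 0.0349), where 17.6% of all genes were called. It was -1.35 within replicate 1 and -0.64 within replicate 2. With an array left out, the change lay between -1.27 and -0.72, the former without WT IL-6 replicate 2. The WT TGFb arrays enter this comparison only through the shared estimate of the spread, and without either of them the change stayed at -0.99. Il4ra, Il7r and Il21r were the 3 of 7 genes whose STAT3-deficient arrays with IL-6 all lay below the WT arrays with IL-6, as did 10.2% of all genes.

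Il9r, the chain for IL-9, read 4 to 4.91 on the 16 arrays, under the level minimum on every one. It was not tested, and with an array signal this low a small amount of its RNA cannot be told from background. Its ligand gene Il9 was measured, and is given with the other genes of the pathway.

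**Figure D3:**
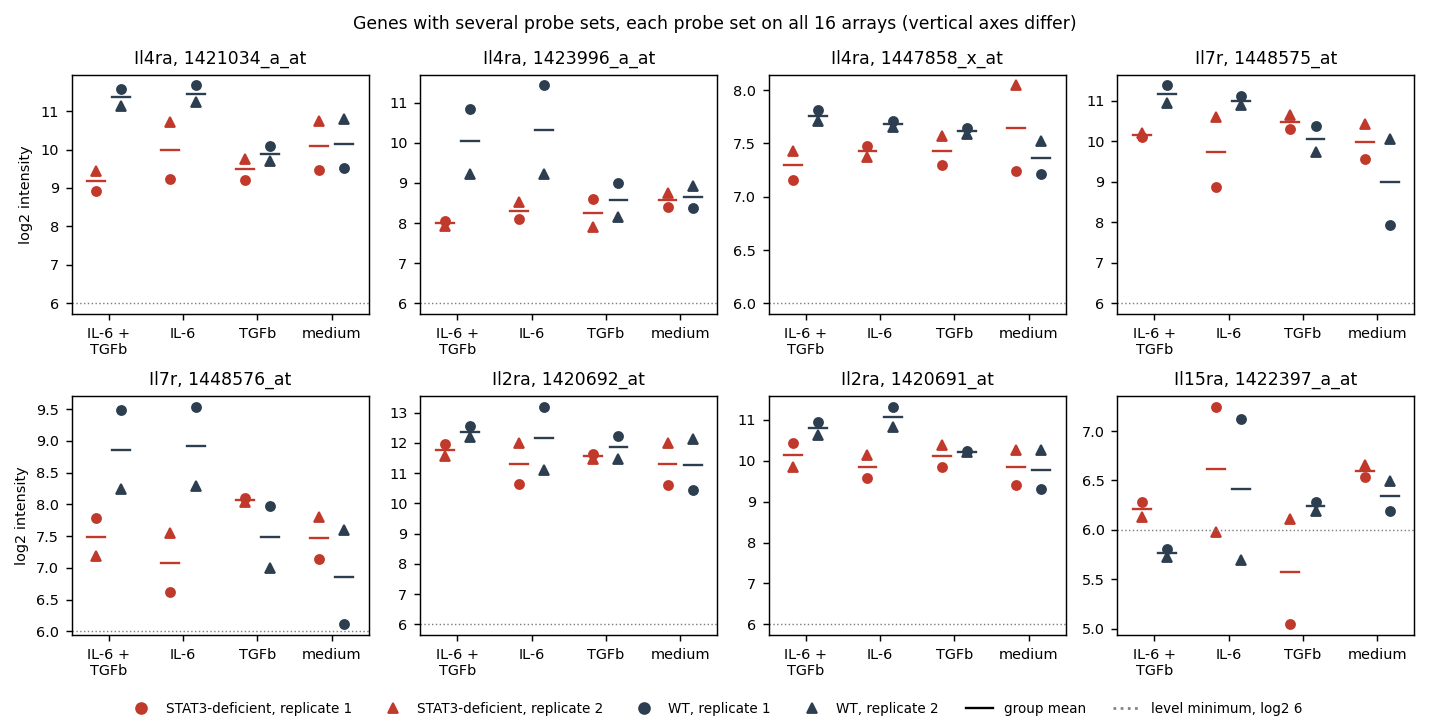
Log2 intensity (vertical axes) of each probe set of Il4ra, Il7r and Il2ra, and of the dimmer probe set of Il15ra, by culture condition, for STAT3-deficient (red, left) and WT cells (dark, right), with replicate symbols, group means and level minimum as dotted line. Both brighter Il4ra probe sets are lower in STAT3-deficient than in WT cells with IL-6, and the dimmer Il15ra probe set lies between 5.04 and 7.25.

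Between the genotypes without IL-6, limma called 0 of the 7 genes and 0 of all 13007, and at an unadjusted p under 0.05 it had 0 of the 7 and 0.292% of all genes. In IL-6 with TGFb it also called 0 of the 7, against 1.19% of all genes, and at an unadjusted p under 0.05 it had 1 of the 7, against 10.1%. In IL-6 it called 0 of the 7, against 3.29%, with 2 of the 7 at an unadjusted p under 0.05, against 21.7%. In TGFb and in medium it called 0 of the 7 and 0% of all genes, with 0 of the 7 at an unadjusted p under 0.05, against 0.684% in TGFb and 0.131% in medium.

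IL-6 present minus absent called 0 of the 7 in STAT3-deficient cells (0% of all genes), with 0 of the 7 at an unadjusted p under 0.05 (4.44%). In WT cells it called 0 of the 7 (1.63%), with 3, Il4ra, Il7r and Il21r, at an unadjusted p under 0.05 (12.6%). The difference of the IL-6 responses called 0 of the 7 (0.354% of all genes), with 3, Il4ra, Il7r and Il15ra, at an unadjusted p under 0.05 (12.1%). The difference of the TGFb responses called 0 of the 7 (0%), with 0 at an unadjusted p under 0.05 (2.64%).

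The full Th17 condition, IL-6 with TGFb, was also set against medium. In STAT3-deficient cells Il2 changed by -3.10 (limma adjusted p = 0.537) and Il15ra by -0.88, and 0 of the 7 passed (0.138% of all genes). In WT cells Il7r changed by 2.16, Il2 by -2.50 and Il15ra by -1.49 (limma adjusted p = 0.110, 0.231 and 0.0901), and 0 of the 7 passed (3.00% of all genes). At an unadjusted p under 0.05 there was 1 of the 7 in STAT3-deficient cells, against 5.98% of all genes, and there were 3 in WT cells, against 16.2%. Both comparisons share arrays with those above.

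Of the other genes of the pathway, 66 had been listed and 57 were tested. The lists were chosen with earlier results of these data known, so their shares describe the lists and are no independent test against all genes. With IL-6 present, 10 of the 57 were lower in STAT3-deficient than in WT cells and 0 were higher, 17.5% against 7.76% of all genes, with a median of -0.55 against 0.00. The deleted gene itself was among them, as was Il21, the ligand of Il21r (log2 change -7.16). Of 6 tested JAK and STAT genes 3 were lower: Jak3, the kinase bound to the common gamma chain, by -1.25 (SE 0.15, limma adjusted p = 0.00115), Stat5b, which carries the IL-2 signal, by -0.83 (adjusted p = 0.0307), and Stat3 by -2.91.

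With IL-6, the 4 STAT3-deficient arrays averaged 9.09 ± 0.21 for Jak3 and the 4 WT arrays 10.34 ± 0.06 (SD), without overlap. Of 14 tested regulators of Il2 transcription 4 were lower, namely the AP-1 factors Fosl2 (-2.60) and Jun (-2.02), the Ikaros-family factor Ikzf3 (-2.18) and the calcium-regulated Nfatc2 (-1.001), with adjusted p from 0.0151 to 0.0246. Of 6 feedback inhibitors 1 was lower (Socs3, -3.75), and of 18 IL-2 and STAT5 target genes 1 was lower (Prdm1, which encodes the repressor Blimp-1, -1.67, adjusted p = 0.0254). Of 9 adaptor, PI3K and MAPK genes and of 1 partner chain 0 passed. With the replicate number as a block, 20 of the 57 passed, against 17.6% of all genes.

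In IL-6 alone 6 of the 57 passed, all lower (10.5% against 3.29% of all genes): Il21, Jak3, Stat3, Stat5b, Prdm1 and Ikzf3. With the block 17 passed, against 11.5% of all genes. In IL-6 with TGFb the 2 that passed were Il21 and Jak3 (3.51% against 1.19%), and with the block 6 passed, against 2.48%. IL-6 present minus absent in WT cells called 2, Il21 and Ikzf3, both higher (3.51% against 1.63%), and with the block 7, against 3.37%. Between the genotypes without IL-6 limma called 0 of the 57, and with the block 1, against 0.0154%.

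With TGFb present, 8 of the 57 were higher and 4 lower, 21.1% against 9.25% of all genes, with a median of 0.05 against -0.01. With the block 18 of the 57 passed, against 16.3% of all genes. Il9, the mast cell and T cell growth factor whose receptor gene stayed under the level minimum, was higher by 2.28 (limma adjusted p = 0.0212), reading 8.94 ± 1.41 with TGFb and 6.66 ± 0.69 without (SD, n = 8 each). Of the 18 IL-2 and STAT5 target genes 2 were higher, Foxp3 (2.74) and the repressor Bcl6 (1.56), and 3 were lower, among them the costimulator Tnfrsf4 (-0.53) and the cyclin Ccnd2 (-0.48). The last of these, outside the rule for names, was the survival gene Bcl2l1 (-0.44). Stat5b (0.77), Socs2, an inhibitor that STAT5 induces (1.16), and Pik3r1, a regulatory subunit of PI3K (1.09), were each the member of their list that passed. Of the regulators of Il2 transcription, Jun (1.80) and Ikzf3 (1.67) were higher and the early response factor Egr1 (-0.51) was lower.

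**Figure D4:**
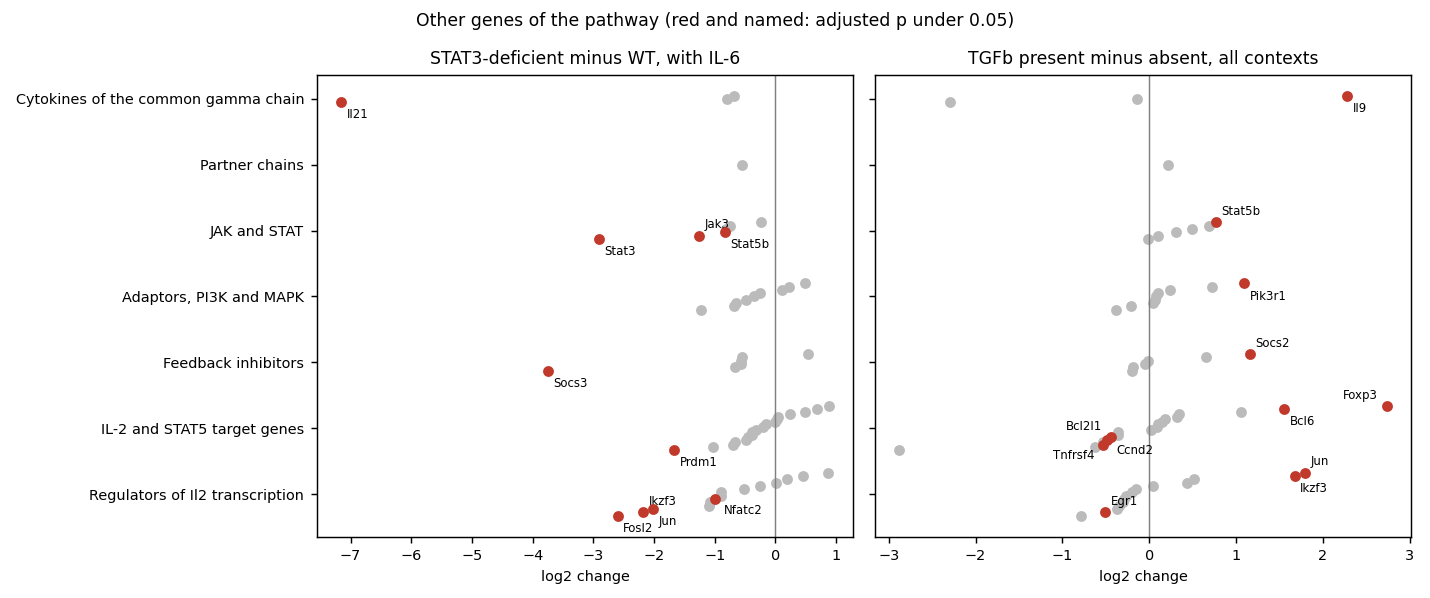
Log2 changes (horizontal axes) of the 57 tested genes of the pathway lists (rows), for STAT3-deficient minus WT with IL-6 (left) and TGFb present minus absent (right); each point is a gene, and red named points have an adjusted p under 0.05. On the left all 10 red points lie below 0, and on the right 8 lie above and 4 below.

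Likeness of pattern was measured as Pearson's r over the 16 arrays after the mean of each replicate number was subtracted. The arrays share conditions and RNA quality, so r is a description. Il4ra was most like Fosl2 (r = 0.97) and the chaperone gene Dnaja4 (r = 0.97). Il2 was most like Kdm2b and Nol10 (r = 0.97 for both). Il7r was most like the transporters Slc16a6 and Slc38a10 (r = 0.92 for both), Il21r was most like Pde12 and Syde2 (0.92 for both), and Il15ra was most like Asap1 and St3gal5 (0.92 for both). Il2ra was most like Rab1a and Srp54b (0.92 and 0.91), and Il2rb was most like Tes and the integrin Itgav (0.93 and 0.92). Among the 7 genes themselves r was highest for Il4ra with Il21r (0.82) and for Il2ra with Il7r (0.79), and lowest for Il2 with Il2rb (-0.67).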

How the data were processed

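Each of the 16 arrays has a deposited column of linear, whole-number intensity values, which the authors made with RMA per the submitters' processing notes (version not given in the sources used here). How the values became linear is not stated. They were used as deposited, as log2 intensity, without further scaling. Of 45101 probe sets, 34945 carry 1 gene symbol in the platform annotation, 932 several and 9160 none, and 64 are controls. For each gene the brightest probe set over all arrays was taken. Genes reaching log2 6 on at least 2 arrays were tested (13007 of 18193).

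All 8 groups were fitted together with limma 3.58.1 in R 4.3.3 (lmFit, eBayes, 8 residual degrees of freedom), and p-values were adjusted by Benjamini-Hochberg over all genes within each of the 13 comparisons, with a threshold of 0.05. The test was checked on simulated data with independent noise on each array. The check therefore does not cover the joint deviation of same-numbered arrays given below. The members and lists were chosen with earlier results of these data known. Genes are named where they are members, the 2 most alike in pattern, or up to 4 called genes of a pathway list with the largest change.

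Same-numbered arrays deviated together: all 28 pairs of groups had a correlation above 0.1 (0.11 to 0.86), so the replicate number was also fitted as a block. The pairing comes from this correlation, not from a stated origin. The number of arrays limits the precision. Motifs were searched in the RefSeq promoter table.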

Additional observations from a re-analysis of the deposited data

How the results depend on the processing

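The calls of lower Il2 and Il15ra with TGFb held under all 10 alternatives (adjusted p up to 0.0161 and 0.0472): a replicate block, a block with the Actb difference, no minimum, a higher minimum, all probe sets, quantile normalization, a pseudocount, array weights, an intensity trend, and the STAT3-deficient replicate 1 arrays with TGFb left out. Under all probe sets, a gene counted as called if any of its probe sets passed, and the dimmer Il15ra probe set did not pass. With the replicate block, 2 of the 7 genes were called between genotypes with IL-6 in place of 1 (Il21r was added), and 1 in place of 0 in IL-6 with TGFb (Il4ra). The block changed no other call of these genes. The block with the Actb difference as a covariate also called 2 with IL-6, and leaving out both STAT3-deficient replicate 1 arrays with TGFb called 0. Array weights called 1 in IL-6 with TGFb (Il4ra) and 2 between IL-6 with TGFb and medium in WT cells (Il7r and Il15ra, adjusted p = 0.0360 and 0.0193). Leaving out single arrays gave 0 to 2 calls between genotypes with IL-6, 0 to 1 for IL-6 in WT cells, 0 to 1 between IL-6 with TGFb and medium in WT cells, and 2 to 3 for TGFb. The third TGFb call was Il21r without WT TGFb replicate 1 (-0.70, adjusted p = 0.0495), and the call against medium was Il7r without WT medium replicate 2 (3.22, adjusted p = 0.0286). Each of 91 values was refitted under the 10 alternatives and in 16 fits with an array left out. Over all these refits, signs differed 8 times under alternatives and 62 times with an array left out. Of these, 0 were of a value called in the main fit. The causes were not tested.

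Counts over all genes moved too. The block called 2294 genes in place of 1009 between genotypes with IL-6, 1490 in place of 428 in IL-6, 322 in place of 155 in IL-6 with TGFb, 2125 in place of 1203 for TGFb, 438 in place of 212 for IL-6 in WT cells and 242 in place of 46 for the difference of IL-6 responses. Against medium it called 38 in place of 18 in STAT3-deficient cells and 833 in place of 390 in WT cells. Array weights called 450 in IL-6 with TGFb, 23 in IL-6, and 48 against medium in STAT3-deficient cells and 979 in WT cells. The block with the Actb difference called 242 in IL-6 with TGFb and 89 for the difference of IL-6 responses, which quantile normalization put at 25. Over all probe sets, 255 were called in IL-6 with TGFb and 1594 between genotypes with IL-6. Without both STAT3-deficient replicate 1 arrays with TGFb, 51 genes were called in IL-6 with TGFb in place of 155 and 525 between genotypes with IL-6 in place of 1009, with 6 for the difference of IL-6 responses and 9 against medium in STAT3-deficient cells. With single arrays left out, the count with IL-6 lay between 334 (without WT IL-6 with TGFb replicate 1) and 1311, and for TGFb between 667 (without WT TGFb replicate 2) and 1688. It lay between 27 (without STAT3-deficient IL-6 replicate 1) and 635 in IL-6, 28 (without STAT3-deficient IL-6 with TGFb replicate 2) and 206 in IL-6 with TGFb, 70 (without WT medium replicate 1) and 456 for IL-6 in WT cells, and 6 (without STAT3-deficient IL-6 with TGFb replicate 1) and 160 for the difference of IL-6 responses. In TGFb it reached 38 in place of 0 without STAT3-deficient TGFb replicate 2. Against medium it lay between 5 and 36 in STAT3-deficient cells and between 94 and 526 in WT cells, lowest without STAT3-deficient medium replicate 2 and WT medium replicate 1. With 2 arrays a group, the call of Il21r between genotypes with IL-6 depended on the fit, and signals near the level minimum, as for Il2 with TGFb, carry the background.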

Other observations

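In medium, 4 receptor chains read higher in replicate 2 than in replicate 1 in both genotypes. Replicate 2 minus replicate 1 was 1.39 for Il2ra in STAT3-deficient and 1.67 in WT cells, 1.70 and 1.67 for Il2rb, 1.26 and 1.29 for Il4ra, and 0.87 and 2.12 for Il7r. Il15ra differed by -0.11 in STAT3-deficient and 1.02 in WT cells, and Il21r by -0.11 and -0.19. Il2 read lower in replicate 2, by -1.22 in STAT3-deficient and -2.37 in WT cells. Il4, which is not among the receptor chains, differed by 6.43 in STAT3-deficient and 4.14 in WT cells. With TGFb added to medium, the replicate difference of Il2ra was -0.19 in STAT3-deficient and -0.75 in WT cells, and that of Il2rb -0.20 and -0.33. With IL-6 added to medium, that of Il2ra was 1.36 in STAT3-deficient and -2.09 in WT cells, and that of Il2rb 0.94 and -0.04. These differences were noticed in the values and not tested.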
